A study of Mus musculus with 4 samples.

Results

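The forkhead genes encode transcription factors that share a winged-helix DNA-binding domain, the forkhead box. All genes whose symbol is Fox with a subfamily letter from a to s and a number were taken, which gave 44 of the 55421 genes in the table and 19 lettered subfamilies. The rule used the symbol only and no expression value, although the family was chosen with earlier results of these data known. The libraries held poly(A) RNA of cultured CD1 mouse spermatogonia (SSC culture), established from neonatal testicular cells, and transcript levels are compared between 2 libraries in complete SSC medium (Veh) and 2 libraries after nutrient restriction combined with retinoic acid (NRRA). The labels give bFGF and GDNF at 10 ng/ml each for the culture medium, while the study's methods list another amount of GDNF. The cultures grew on a layer of irradiated mouse embryonic fibroblasts, so feeder and germ cell RNA were both present in each library. The nutrient restriction medium was mostly a balanced salt solution with a small part of complete medium, so the NRRA cultures also had less of these growth factors. The comparison addresses how SSC culture responds to nutrient restriction and RA given together, and it does not separate the effect of one from that of the other, since neither was given alone. The study describes its sequencing replicates as independent biological ones, and the labels do not name the culture or animal behind each library. Titles and treatment labels separate the groups, although a protocol label reads NRRA for all 4 samples. Stra8, the gene stimulated by retinoic acid, stood at 9.61 and 10.1 CPM (counts scaled to the library size) in Veh and 1862 and 1851 CPM in NRRA.

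Forkhead proteins bind DNA, mostly as monomers, at a short core motif, and the subfamilies differ in what controls them. FOXO proteins are phosphorylated by AKT downstream of PI3K when growth factors and nutrients are plentiful and are then kept out of the nucleus. In the testis, Foxo1 is required for the maintenance of spermatogonial stem cells and for the start of spermatogenesis. FOXM1 drives genes of mitosis, FOXA proteins open chromatin in endoderm, and other subfamilies are best known from mesenchyme, ectoderm, cilia or the nervous system. Much of this control acts on the protein, which RNA counts do not show.

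The promoters of 4 forkhead genes are shown first because these genes changed most within their subfamilies or hold the motifs searched. Each sequence is the 250 bases before a RefSeq transcript start (GRCm38.p6), 5′ to 3′ on the strand of the gene, and capitals mark a motif match. RefSeq starts need not be those of the gene models used for counting. The Foxn4 promoter (chr5:114273762-114274011, minus strand) held no match, the Foxa1 promoter (chr12:57546112-57546361, minus strand) held the forkhead core, and the promoters of Foxa2 (chr2:148046970-148047219, minus strand, the farthest upstream of 3 starts) and Foxi3 (chr6:70956356-70956605, plus strand) each held the STRA8 motif.
Foxn4: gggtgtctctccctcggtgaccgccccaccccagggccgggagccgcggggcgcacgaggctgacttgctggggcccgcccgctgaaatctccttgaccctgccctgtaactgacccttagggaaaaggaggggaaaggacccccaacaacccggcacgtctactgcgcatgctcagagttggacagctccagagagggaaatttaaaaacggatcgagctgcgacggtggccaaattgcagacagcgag
Foxa1: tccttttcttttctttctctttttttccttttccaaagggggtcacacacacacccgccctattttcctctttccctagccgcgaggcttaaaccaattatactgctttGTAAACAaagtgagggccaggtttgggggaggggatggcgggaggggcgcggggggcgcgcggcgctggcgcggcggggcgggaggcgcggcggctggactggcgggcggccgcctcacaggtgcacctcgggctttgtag
Foxa2: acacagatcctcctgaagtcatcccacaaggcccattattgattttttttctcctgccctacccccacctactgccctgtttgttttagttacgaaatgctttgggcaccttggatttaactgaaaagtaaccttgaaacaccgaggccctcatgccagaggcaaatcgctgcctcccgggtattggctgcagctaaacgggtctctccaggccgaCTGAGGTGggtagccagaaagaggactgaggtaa
Foxi3: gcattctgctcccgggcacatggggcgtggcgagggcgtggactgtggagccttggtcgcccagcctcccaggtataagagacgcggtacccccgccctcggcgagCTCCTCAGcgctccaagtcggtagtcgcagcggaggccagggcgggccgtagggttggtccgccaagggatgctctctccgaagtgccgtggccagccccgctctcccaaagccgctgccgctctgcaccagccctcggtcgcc

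The letters searched, on both strands, were GTAAACA (forkhead core), AGGTCA (the half-site of retinoic acid receptors) and CNCCTCAG (the motif described for STRA8). No match in the promoters shown overlapped another. Promoters were found for 28 of the 44 forkhead genes, 33 promoters in all. The forkhead core was in 1 of the 33, that of Foxa1, against 3.17% of the 32851 promoters in the table. The half-site was in 4 (Foxe3, Foxi2, Foxk2 and Foxp3), against 14% of all promoters. The STRA8 motif was in 4 (Foxa2, Foxd2, Foxf2 and Foxi3), against 6.42%. These matches describe the letters in a window and not binding.

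Counts assigned to genes totalled between 28022265 and 31604769 per library, and forkhead genes took 0.164% and 0.159% of them in Veh and 0.135% and 0.137% in NRRA. Log2 CPM correlated across genes at 0.993 and 0.994 within the groups and at 0.958 to 0.959 between them, and replicates differed by more than sampling noise. A count of 3, used as the floor, corresponded to 0.0920 to 0.110 CPM.

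Of the 44 forkhead genes, 35 had enough counts to be tested. The other 9 had at most 12 counts in any library. Foxb1, Foxb2, Foxd4 and Foxi2 had no count in any library, which allows up to 0.110 CPM by counting error alone, and Foxe1 (thyroid), Foxe3 (lens), Foxi1 (inner ear and kidney), Foxl2 (ovarian granulosa cells) and Foxn1 (thymus) had between 0 and 12. Subfamilies B and E therefore had no tested member. The filter was passed through the NRRA libraries alone by Foxa1, Foxn4 and Foxr2 and through the Veh libraries alone by Foxa3, Foxd3 and Foxf2.

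Among the tested genes, 9 rose and 17 fell in NRRA (edgeR, adjusted p under 0.05), so 26 of 35 changed, against 56.4% of the 20232 genes tested (27.9% higher and 28.4% lower). At least 2-fold changes were found in 16 of the 35, of which 5 rose and 11 fell, with 13.3% among all tested genes (6.29% higher and 7.02% lower). Of the 16, 4 (Foxa1, Foxn4, Foxr2 and Foxa3) passed the filter only through the group where they were high, so these counts, like those before them, are descriptions from which nothing about the family is read. The groups did not overlap for 33 of the 35, all but Foxd3 and Foxj3, against 76.7% of all genes. The median log2 fold change was -0.32 for the forkhead genes and 0.00029 for all genes. For comparison with other families of developmental transcription factors, 5 of 15 tested Sox genes rose and 7 fell, and 15 of 32 tested Hox genes rose and 9 fell. Differences between the families were not tested. Because these are bulk libraries, fewer cells of a type and less RNA per cell cannot be told apart for any gene below.

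**Figure D1:**
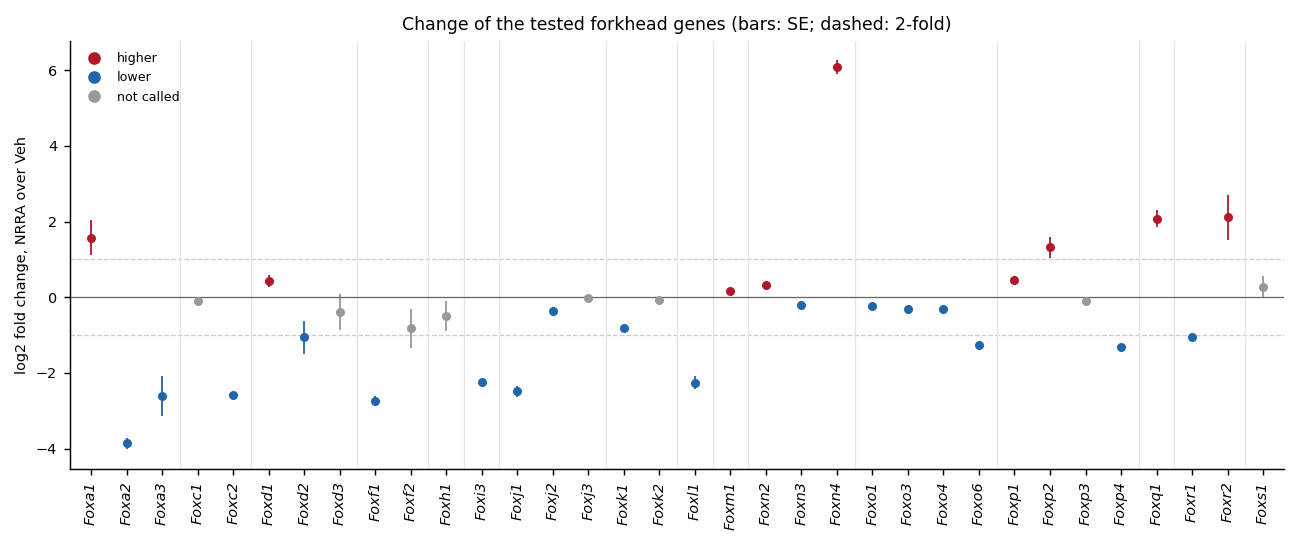
Log2 fold change, NRRA over Veh, of 34 of the 35 tested forkhead genes in order of subfamily letter, with SE as bars and 2-fold change as dashed lines. Red genes rose, blue genes fell and grey genes did not pass the test, and Foxn4 stands apart at 6.08 above the other genes, which lie between -3.86 and 2.12.

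Forkhead RNA as a whole was lower in NRRA. To compare levels between genes, CPM was divided by the length of the exons in kilobases. Summed over the family, this level was 325 and 310 CPM per kb in Veh against 208 in each NRRA library, a log2 ratio of -0.61. Subfamily O gave the largest share of this sum in each library, 26.3% and 27.2% in Veh and 29.6% and 29.5% in NRRA. Subfamilies A, C, F, I and L stood at a fraction of their Veh level. Subfamily C went from 32.4 ± 3.01 to 7.54 ± 0.474 CPM per kb (mean ± SD of 2 libraries), subfamily I from 23.2 ± 1.08 to 4.89 ± 0.317, subfamily A from 11.3 ± 1.07 to 1.10 ± 0.282, subfamily F from 10.1 ± 1.07 to 1.6 ± 0.388 and subfamily L from 2.80 ± 0.409 to 0.660 ± 0.0202. Subfamily N went up from 12.6 ± 0.278 to 19.5 ± 0.0271 CPM per kb and subfamily Q, at a low level, from 0.196 ± 0.0128 to 0.831 ± 0.0515. These sums are descriptions and were not tested.

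**Figure D2:**
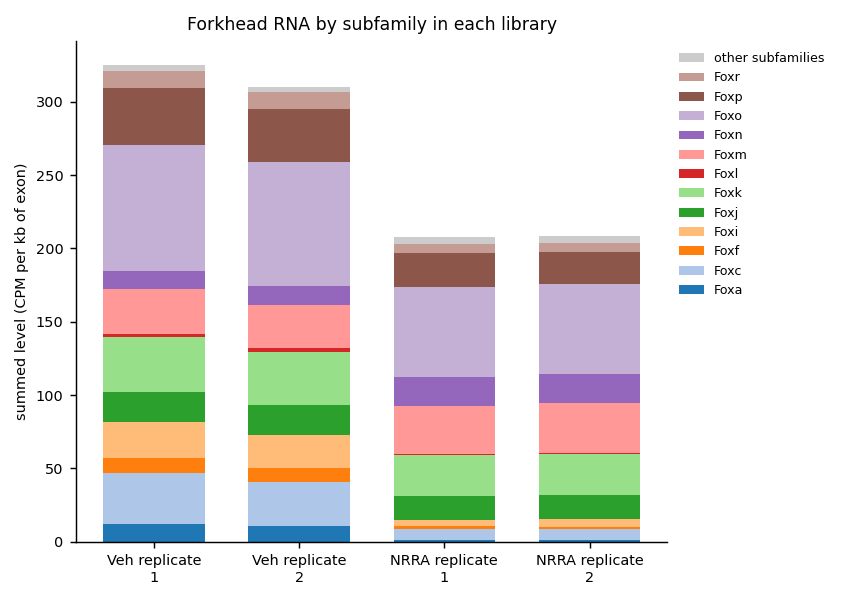
Summed level of forkhead RNA in each library in CPM per kb of exon, stacked by subfamily, where the subfamilies of lowest level are drawn as one. The bars reach 325 and 310 in Veh against 208 in each NRRA library, and the segments of subfamilies A, C, F and I are narrower in NRRA while that of subfamily N is wider.

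The order of the genes changed with it. In Veh the highest levels per kb were those of Foxm1 (29.9 ± 1.2 CPM per kb), Foxc2 (29.6 ± 3.08), Foxp4 (28.2 ± 1.71) and Foxo3 (28.0 ± 0.810), followed by Foxi3 (23.2 ± 1.09) and Foxo1 (23.1 ± 0.343). Neighbours among the first 4, and Foxi3 and Foxo1, did not differ beyond their spread. In NRRA they were Foxm1 (33.5 ± 0.627), Foxo3 (22.7 ± 1.10), Foxo1 (19.7 ± 0.328), Foxk2 (19.0 ± 0.0808) and Foxj3 (11.8 ± 0.617). The first 4 each stood above the next in both libraries, whereas Foxj3 did not differ beyond its spread from Foxp4 (11.3 ± 0.685). Foxm1 had the highest mean in both groups, although Foxc2 stood above it in Veh replicate 1. By group means, Foxc2 moved from place 2 to 15, Foxi3 from 5 to 16, Foxa2 from 13 to 25 and Foxn4 from 32 to 11. Of the 44 genes, 25 reached a mean of 1 CPM per kb in at least 1 group.

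**Figure D3:**
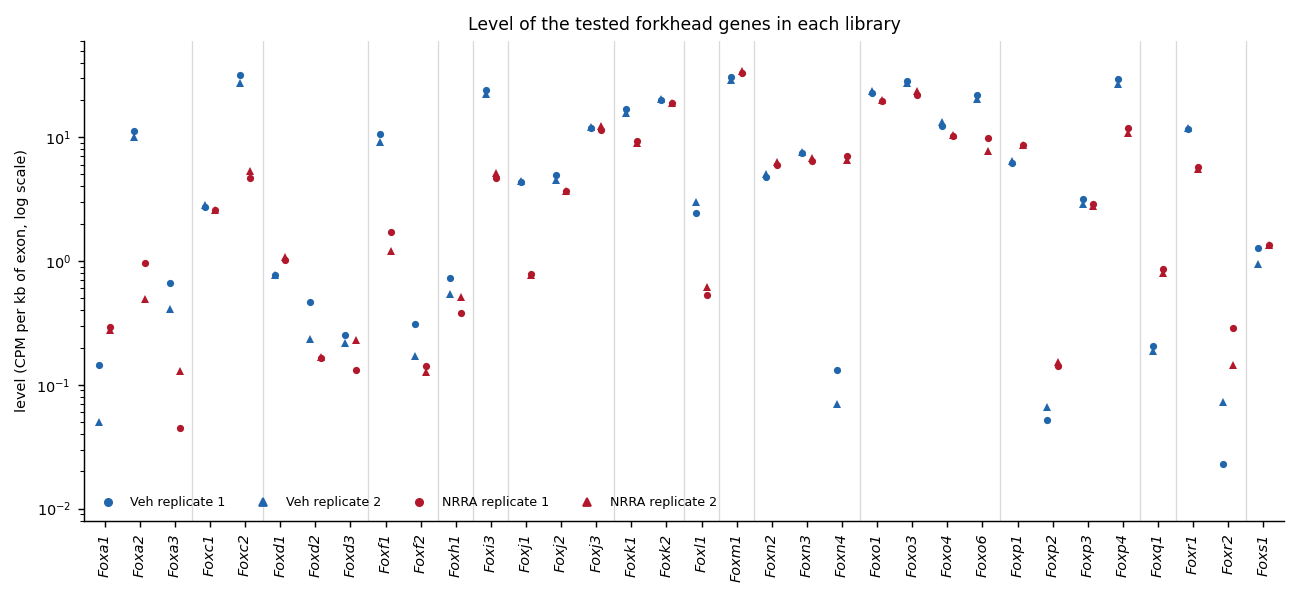
Level of 34 of the 35 tested forkhead genes in each library in CPM per kb of exon on a log axis, ordered by subfamily letter with grey lines between subfamilies. Circles and triangles are replicates 1 and 2, Veh in blue and NRRA in red, and the replicates of Foxc2, Foxi3 and Foxj1 lie close together while the groups lie far apart.

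All 4 FoxO genes fell, with 28.4% lower among all tested genes. Foxo1 (ENSMUSG00000044167, chr3:52268336-52353221 in GRCm38), the FoxO gene that spermatogonial stem cells need, had 198 and 202 CPM in Veh and 169 and 173 CPM in NRRA, a log2 fold change of -0.23 (SE 0.03, adjusted p = 3.92e-07). Foxo3, which restrains the growth of dormant oocytes, had 216 and 208 CPM in Veh and 166 and 178 CPM in NRRA (-0.30, SE 0.03, adjusted p = 2.02e-08). Foxo4, on the X chromosome, had 42.8 and 46.4 CPM in Veh and 35.6 and 36.0 CPM in NRRA (-0.32, SE 0.06, adjusted p = 4.61e-05). These decreases were small and the groups did not overlap in any of the 3 genes, as they did not for 76.7% of all tested genes. Foxo6, known mostly from the brain, fell further, from 57.4 and 53.4 CPM to 25.6 and 20.0 CPM (-1.27, SE 0.08, adjusted p = 4.65e-13). The ratio of Foxo1 to Foxo3, in levels per kb, was 0.801 and 0.852 in Veh and 0.889 and 0.85 in NRRA, so the groups overlapped, whereas that of Foxo1 to Foxo6 went from 1.04 and 1.14 to 1.99 and 2.6. A gene on the opposite strand, Gm20402, overlaps 7.78% of the exon bases of Foxo1 and had 784 to 861 counts in the 4 libraries.

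Genes that act on FOXO proteins were taken from a fixed list of 41 PI3K-AKT components and other regulators, all of which were tested. Of these, 13 rose and 22 fell (85.4% changed, against 56.4% of all tested genes), and their median log2 fold change was -0.11. With unscaled library sizes 18 rose and 16 fell, so the balance of directions depends on the scaling. At least 2-fold changes were found in 4 of the 41 (9.76%, against 13.3% of all tested genes). Phlpp1, a phosphatase that removes a phosphate from AKT, rose most, from 17.4 and 16.6 CPM to 46.9 and 45.8 CPM (1.45, SE 0.07, adjusted p = 4.23e-16). Sgk3, a kinase related to AKT that also phosphorylates FOXO proteins, fell most, from 91.6 and 94.0 CPM to 29.4 and 26.7 CPM (-1.72, SE 0.05, adjusted p = 8.27e-20).

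Of 48 genes known as FOXO targets in one tissue or another, 43 were tested, 14 rose and 20 fell (79.1% changed, against 56.4% of all tested genes), with a median log2 fold change of -0.054. With unscaled library sizes 17 rose and 18 fell. Ppargc1a, a member of this list, passed the filter through the NRRA libraries alone, so the share changed is a description. Pdk4, which shuts off pyruvate dehydrogenase in fasting, rose most, from 4.82 and 4.63 CPM to 15.6 and 16.9 CPM (1.78, SE 0.12, adjusted p = 5.83e-13). Trim63, the muscle ubiquitin ligase MuRF, fell most, from 3.06 and 3.19 CPM to 0.828 and 0.332 CPM (-2.40, SE 0.31, adjusted p = 2.26e-07).

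Foxm1 (chr6:128362967-128376146), the mitotic regulator, rose slightly, from 177 and 167 CPM to 190 and 195 CPM (0.16, SE 0.03, adjusted p = 0.000126). All 30 genes of the FOXM1 target list were tested, 13 rose and 8 fell (70% changed, against 56.4% of all tested genes, with 27.9% higher and 28.4% lower), none by 2-fold, and the median was -0.011. The members at the ends were Cdc25c, the phosphatase that activates the mitotic kinase, at 0.76 (SE 0.09, from 11.9 and 13.1 CPM to 21.2 and 21.3 CPM), and Cks1b, a subunit bound to cyclin-dependent kinases, at -0.30 (SE 0.06, from 46.1 and 48.1 CPM to 37.8 and 38.6 CPM). With library sizes left unscaled, 5 rather than 8 fell.

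Foxn4 (ENSMUSG00000042002, chr5:114254164-114273807) showed the largest change of the family. Foxn4 directs the choice of amacrine and horizontal cells in the retina and of interneurons in the spinal cord. It had 12 and 7 counts in Veh against 774 and 663 counts in NRRA, or 0.442 and 0.235 CPM against 23.7 and 22 CPM. It was 67.7-fold higher in NRRA (6.08 on the log2 scale, SE 0.19, adjusted p = 8.74e-20), and both Veh libraries lay just above the floor. Its level per kb passed that of Foxn2, with a ratio of Foxn4 to Foxn2 of 0.0277 and 0.0138 in Veh and 1.17 and 1.04 in NRRA. The other tested N genes, widely expressed, changed little. Foxn3 had 86.3 and 87.7 CPM in Veh and 73.9 and 77.7 CPM in NRRA (-0.20, SE 0.04, adjusted p = 0.000235), and Foxn2 rose by 0.32 on the log2 scale (SE 0.06, adjusted p = 3.35e-05).

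The neural genes tied to FOXN4 were taken from a list of 12, of which 6 were tested, 5 rose and none fell. Of the 5, 4 (Ptf1a, Prox1, Rorb and Dll4) passed the filter through the NRRA libraries alone, where they are high, so this count is not read against the 27.9% of all tested genes that rose. Ptf1a, the helix-loop-helix factor that acts after Foxn4 in retinal progenitors, had 0 and 0 counts in Veh against 59 and 54 in NRRA, at least 17.1-fold higher when the floor of 3 counts per library stands in for Veh. Ptf1aos, on the opposite strand, overlaps 40.4% of the exon bases of Ptf1a and had 0, 0, 45 and 36 counts, so reads of these genes cannot be told apart without the strand setting of the counting. The member with the smallest change called was Gata2, at 0.37 (SE 0.14, adjusted p = 0.0298), from 6.67 and 5.24 CPM to 8.07 and 7.20 CPM. The others that rose, Prox1 (1.84), Rorb (1.80) and Dll4 (1.07, a Notch ligand), had at most 46 counts in a library, and Atoh7 did not pass the test at 0.38. DESeq2 called 2 of the 12 higher, Ptf1a and Prox1, and 3 were called when Veh replicate 2 was left out. The count of 5 therefore rests in part on that library and on the tool.

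The FOXA genes, pioneer factors of liver, gut and lung, moved apart. Foxa2 (ENSMUSG00000037025, chr2:148042877-148046969) fell the most of all forkhead genes, from 726 and 714 counts to 74 and 35, or 26.7 and 24.0 CPM to 2.27 and 1.16 CPM. It was 14.6-fold lower in NRRA (-3.86, SE 0.15, adjusted p = 2.09e-17). Foxa3 had 37 and 25 counts in Veh against 3 and 8 in NRRA (-2.61, SE 0.52, adjusted p = 0.000113), and its change was -2.02 without NRRA replicate 1 and -3.51 without NRRA replicate 2. In contrast, Foxa1 had 13 and 5 counts in Veh against 32 and 28 in NRRA (1.58, SE 0.47, adjusted p = 0.00569). The call for Foxa1 was lost with DESeq2 (adjusted p = 0.0836) and when Veh replicate 2 was left out (0.99, adjusted p = 0.134), and the change was 2.48 without Veh replicate 1.

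The forkhead genes of 1 cluster on chromosome 8 fell together. Foxf1 (chr8:121084386-121088144), Foxc2 (chr8:121116171-121118895) and Foxl1 (chr8:121127940-121130644) lie on the same strand within 46.3 kb. Foxf1 acts in lung and gut mesenchyme and in endothelium, Foxl1 in gut mesenchyme, and Foxc2 in lymphatic vessels and, among germ cells, in a subset of undifferentiated spermatogonia. Foxf1 had 689 and 657 counts in Veh against 136 and 87 in NRRA, or 25.4 and 22.1 CPM against 4.17 and 2.89 CPM (-2.74, SE 0.13, adjusted p = 7.44e-16). Foxc2 had 2351 and 2226 counts in Veh against 413 and 434 in NRRA, or 86.6 and 74.7 CPM against 12.7 and 14.4 CPM (-2.58, SE 0.07, adjusted p = 1.67e-20). Foxl1 had 180 and 242 counts in Veh against 47 and 50 in NRRA, or 6.63 and 8.12 CPM against 1.44 and 1.66 CPM (-2.25, SE 0.18, adjusted p = 5.96e-11). The 3 genes were between 4.77-fold and 6.67-fold lower, where 7.02% of all tested genes were called at least 2-fold lower. The groups did not overlap in the 3 genes, as they did not for 76.7% of all tested genes. Replicates differed most in Foxf1 in NRRA and in Foxl1 in Veh.

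Other transcripts at this locus were measured as well. Fendrr, a long noncoding RNA whose start lies 1.28 kb from that of Foxf1 on the opposite strand, had 41 and 84 counts in Veh against 7 and 10 in NRRA (-2.99, SE 0.40, adjusted p = 5.18e-07). Gm27530, a small RNA annotated on the opposite strand of Foxf1, where it overlaps 4.06% of the exon bases, fell as well. It had 57 and 81 counts in Veh against 18 and 5 in NRRA (-2.71, SE 0.37, adjusted p = 6.52e-07). Its reads cannot be told apart from those of Foxf1 without the strand setting of the counting. Fendrr and Gm27530 passed the filter through the Veh libraries alone, where they are high, so their calls add no support to those of the forkhead genes. Mthfsd, named for its folate synthetase domain, which lies between Foxf1 and Foxc2, fell less, from 572 and 688 counts to 522 and 479 (-0.47, SE 0.08, adjusted p = 1.92e-05). These were the only other genes tested with a start within 300 kb. Of 11 noncoding RNAs named for or next to a forkhead gene, 5 were in the table and 2 were tested, of which Fendrr fell and Foxd2os did not pass the test (0.22, adjusted p = 0.740).

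**Figure D4:**
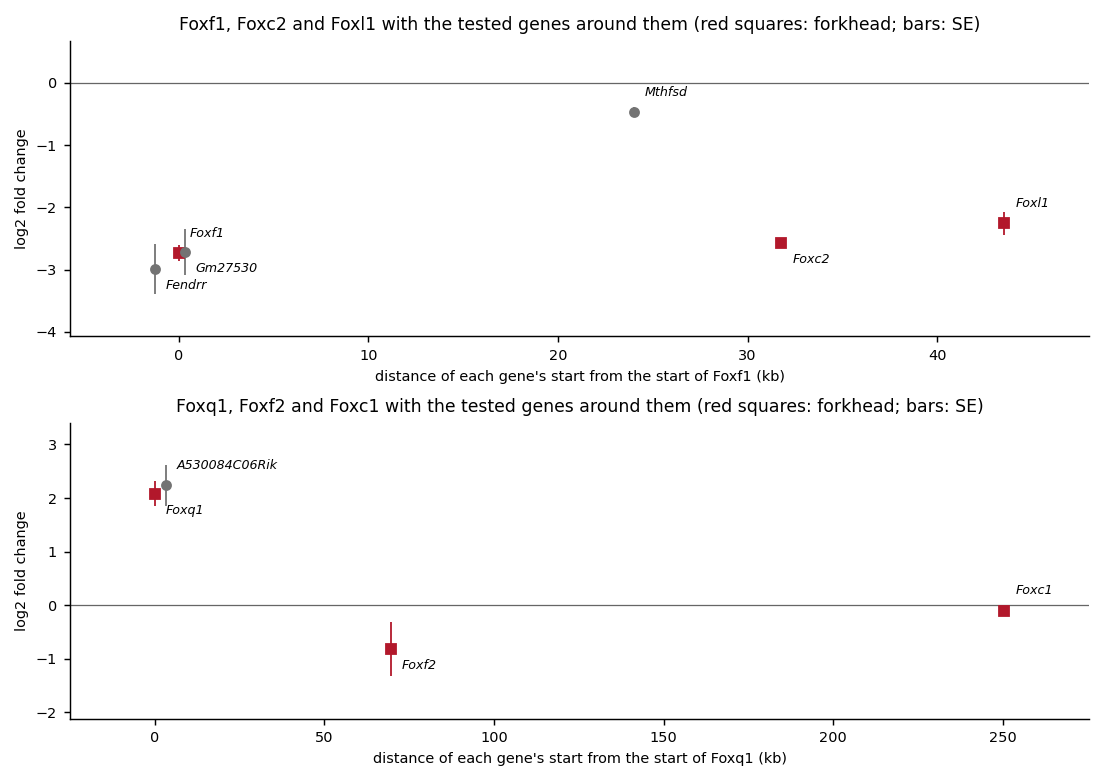
Log2 fold change (SE as bars) of forkhead genes (red squares) and the other tested genes around them (grey circles) against the distance of their starts in kb, for the cluster on chromosome 8 (upper panel) and that on chromosome 13 (lower panel). Foxf1, Foxc2 and Foxl1 lie between -2.74 and -2.25 with Mthfsd between them at -0.47, whereas Foxq1 lies at 2.08 and Foxc1 near 0.

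A second cluster, on chromosome 13 within 256 kb, did not move as one. Foxq1 (chr13:31556134-31560976), known from hair and stomach, had 27 and 27 counts in Veh against 137 and 116 in NRRA, or 0.994 and 0.906 CPM against 4.2 and 3.85 CPM (2.08, SE 0.23, adjusted p = 1.97e-08). On the opposite strand, A530084C06Rik covers 66.1% of the exon bases of Foxq1 and rose as well, from 11 and 9 counts to 61 and 44 (2.23, SE 0.38), so these genes cannot be told apart without the strand setting of the counting. A530084C06Rik passed the filter through the NRRA libraries alone. Foxf2, the paralog of Foxf1, had 20 and 12 counts in Veh against 11 and 9 in NRRA (-0.82, SE 0.51, adjusted p = 0.181). Foxc1, the paralog of Foxc2 and a gene of mesenchyme, had 15.9 and 16.4 CPM in Veh and 15.0 and 15.2 CPM in NRRA (-0.10, SE 0.09, adjusted p = 0.328). The ratio of Foxc2 to Foxc1, in levels per kb, was 11.7 and 9.74 in Veh and 1.81 and 2.04 in NRRA.

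Markers of other cells were counted because forkhead genes of mesenchyme and endothelium could be transcribed in them. Of 24 fibroblast feeder markers, 3 rose (Fap, Pdgfra and Col3a1) and 19 fell (91.7% changed, with 56.4% among all tested genes, 27.9% higher and 28.4% lower), with a median of -0.33. Their summed level was 11790 and 11666 CPM in Veh and 8933 and 8692 CPM in NRRA, and none was at the floor in all libraries. Of 8 endothelial markers, 6 were tested and 3 fell (Flt1, Pecam1 and Kdr), a share of 50%, near that of all tested genes that changed. The log2 fold changes of the tested markers ran from -1.96 to 0.51, and none was called higher. The summed level of the 8 was 84.0 and 85.6 CPM in Veh and 25.3 and 25.9 CPM in NRRA. Cdh5, a defining endothelial gene, had 44 to 66 counts and did not pass the test (-0.46), and Tie1 and Cldn5 had at most 4 counts. All 12 germ cell markers were detected, with a summed level of 2778 and 2850 CPM in Veh and 4363 and 4337 CPM in NRRA, and the rise of Stra8 given above was larger than this difference. Of the tested markers of other testicular cells, 3 of 8 for Sertoli cells rose and 2 fell (summed level 47.1 and 52.0 CPM in Veh, 82.1 and 80.9 CPM in NRRA, Fshr at 0), 1 of 2 for Leydig cells rose (7.55 to 9.63 CPM in the 4 libraries), and 2 of 6 for macrophages fell (39.2 to 50.4 CPM). Their shares changed were 62.5%, 50% and 33.3%, with 56.4% among all tested genes. Gata4 passed the filter through the NRRA libraries alone and Gata1 and Mrc1 through the Veh libraries alone. Cyp17a1 and Ptprc reached the minimum count in both libraries of neither group. Nothing is therefore read from these shares. The part that feeder or endothelial RNA had in the lower levels of Foxf1, Foxc2 and Foxl1 was not tested.

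Foxi3 (ENSMUSG00000055874, chr6:70956531-70961066), an ectodermal gene of hair, teeth and ear, was among the more abundant forkhead genes per kb in Veh. It fell from 834 and 856 counts to 195 and 197, or 30.7 and 28.7 CPM to 5.98 and 6.54 CPM, and was 4.75-fold lower in NRRA (-2.25, SE 0.09, adjusted p = 4.69e-17). Replicates differed by far less than the groups. Foxi1 and Foxi2, of the same subfamily, had at most 1 count in a library.

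Foxj1, the master regulator of motile cilia, fell from 309 and 343 counts to 67 and 61, or 11.4 and 11.5 CPM to 2.05 and 2.02 CPM (-2.49, SE 0.15, adjusted p = 1.20e-13). Its paralog Foxj3 had 129 and 132 CPM in Veh and 125 and 134 CPM in NRRA, with overlapping groups (-0.014, SE 0.04, adjusted p = 0.778, and 0.076 on the log2 scale with unscaled library sizes), and Foxj2 fell by 0.36 on the log2 scale (SE 0.07, adjusted p = 0.000211). Of 32 motile cilia genes, 25 were tested, 8 rose and 6 fell, with a median of -0.028. The share changed was 56%, with 56.4% among all tested genes. Tekt1 and Cfap126 passed the filter through the Veh libraries alone, so nothing is read from this share. Ccno, which acts in the multiplication of centrioles, rose most, from 31 and 27 counts to 159 and 160 (2.31, SE 0.22, adjusted p = 9.08e-10), and Cfap126 fell most, from 39 and 26 counts to 14 and 9 (-1.64, SE 0.43, adjusted p = 0.0020), having passed the filter through the Veh libraries alone. DESeq2 called 5 rather than 8 of the cilia genes higher.

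Subfamilies K and P hold repressors, some of them broadly expressed, and within each the proportions of the members shifted. Foxk1 and Foxk2 are known to hold down autophagy genes when nutrients are plentiful. Foxk2 had 106 and 106 CPM in Veh and 99.4 and 100 CPM in NRRA (-0.086, SE 0.04, adjusted p = 0.0528, and 0.0043 on the log2 scale with unscaled library sizes), while Foxk1 fell by 0.82 on the log2 scale (SE 0.04, adjusted p = 6.84e-15). The ratio of Foxk1 to Foxk2, in levels per kb, was 0.840 and 0.773 in Veh and 0.496 and 0.474 in NRRA.

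Foxp4 (chr17:47867133-47924645), known from lung and gut epithelium, fell from 145 and 133 CPM to 58.1 and 53.3 CPM (-1.32, SE 0.05, adjusted p = 1.64e-18). Foxp1, a regulator in lymphocytes, heart and lung, rose by 0.45 on the log2 scale (SE 0.04, adjusted p = 1.04e-10), and the ratio of Foxp1 to Foxp4 in levels per kb went from 0.211 and 0.237 to 0.728 and 0.803. Foxp2, known from speech circuits of the brain, rose at a low level, from 23 and 32 counts to 75 and 76, or 0.847 and 1.07 CPM to 2.30 and 2.52 CPM (1.32, SE 0.27, adjusted p = 0.000176). P genes thus moved in both directions, with 27.9% higher and 28.4% lower among all tested genes. The groups did not overlap in these 3, as they did not for 76.7% of all tested genes.

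Foxp3, the defining factor of regulatory T cells, had 396 and 393 counts in Veh against 429 and 384 in NRRA (-0.10, SE 0.10, adjusted p = 0.408). Of 9 T cell markers, Cd8a had no count and Cd4, Cd3d, Il2ra and Ctla4 had at most 5. The other 4 were tested. Lck (126, 140, 88 and 60 counts) and Cd2 (77, 75, 1 and 3) fell, Cd3e (16, 3, 25 and 29) rose and Ptprc (9, 12, 11 and 6) did not pass the test. Cd2 passed the filter through the Veh libraries alone and Cd3e through the NRRA libraries alone. These calls are therefore not read against the 56.4% of all tested genes that changed. The summed level of the list was 8.47 and 7.82 CPM in Veh and 3.93 and 3.48 CPM in NRRA. Exon bases of Foxp3 overlap Flicr (18.6%, same strand), and Ccdc22 (12.9%), Gm36995 (8.15%) and Ppp1r3f (5.81%) on the opposite strand, so its counts may hold reads of other genes.

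Subfamily R has members known from germ cells and from tumours. Foxr1 fell from 717 and 805 counts to 432 and 379, or 26.4 and 27.0 CPM to 13.2 and 12.6 CPM (-1.05, SE 0.08, adjusted p = 1.51e-11). Foxr2, an oncogene on the X chromosome, had 2 and 7 counts in Veh against 30 and 14 in NRRA (2.12, SE 0.60, adjusted p = 0.00378). That call was lost with DESeq2 (adjusted p = 0.0607), without Veh replicate 1 (1.55, adjusted p = 0.0567) and without NRRA replicate 1 (1.54, adjusted p = 0.153), and the change was 3.17 without Veh replicate 2.

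The remaining subfamilies were low. Foxd1, a gene of renal stroma, had 106 and 116 counts in Veh against 168 and 163 in NRRA, or 3.90 and 3.89 CPM against 5.15 and 5.41 CPM (0.44, SE 0.16, adjusted p = 0.0191). Foxd2 had 33 and 18 counts in Veh against 14 and 13 in NRRA (-1.06, SE 0.44, adjusted p = 0.0449). Neither call was stable. Foxd1 was lost with DESeq2 (adjusted p = 0.179) and without Veh replicate 1 (0.0569), Veh replicate 2 (0.0515) or NRRA replicate 2 (0.0867). Foxd2 was lost with DESeq2 (0.25), with unscaled library sizes (0.0653), without the filter (0.0513) and without Veh replicate 1 (-0.49 on the log2 scale, adjusted p = 0.565), NRRA replicate 1 (0.132) or NRRA replicate 2 (0.117). Foxd3, known from neural crest and pluripotent cells, had 10 to 16 counts and did not pass the test (-0.39, adjusted p = 0.522).

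Foxh1, the partner of SMAD proteins in Nodal signalling, had 27 and 22 counts in Veh against 17 and 21 in NRRA (-0.51, SE 0.40, adjusted p = 0.298). Of 25 Nodal pathway genes, 18 were tested, 3 rose and 7 fell, with a median of -0.35, the same with genes at the floor set to their bound. The share changed was 55.6%, with 56.4% among all tested genes. Gsc passed the filter through the NRRA libraries alone and Gdf3 and T through the Veh libraries alone, so nothing is read from this share. Acvr2b, an activin and Nodal receptor, rose most, from 45.5 and 44.1 CPM to 68.9 and 72.3 CPM (0.66, SE 0.05, adjusted p = 1.29e-11). Gdf3, a ligand of the pathway, had 44 and 47 counts in Veh against 0 and 0 in NRRA, at least 16.7-fold lower against the floor per library, and passed the filter through the Veh libraries alone. With unscaled library sizes 5 genes rose.

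Foxs1, known from pericytes, had 45 and 37 counts in Veh against 57 and 53 in NRRA (0.28, SE 0.27, adjusted p = 0.399). Foxl2 itself was not tested, with 5, 8, 12 and 6 counts. Of 13 genes tied to FOXL2 in granulosa cells, 8 were tested, 4 rose and 2 fell. Wnt4 had the largest change, from 5 and 2 counts to 12 and 19 (1.97, SE 0.66, adjusted p = 0.0124), and passed the filter through the NRRA libraries alone, so the count is not read against the 56.4% of all tested genes that changed. Fst, which binds activin and is also on the Nodal list, fell most, from 28.9 and 29.5 CPM to 9.11 and 8.86 CPM (-1.70, SE 0.08, adjusted p = 2.08e-15). The 4 that rose became 0 with DESeq2, 1 without Veh replicate 1 and 2 without any other single library.

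**Figure D5:**
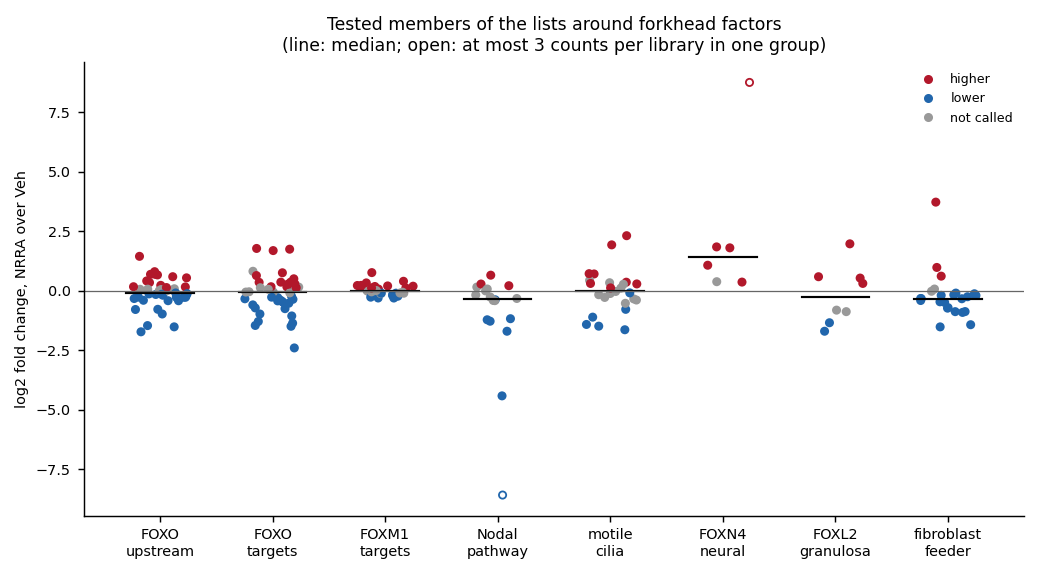
Log2 fold change, NRRA over Veh, of each tested member of 7 lists around forkhead factors and of the fibroblast feeder markers, with the median as a line. Red points rose, blue points fell and grey points did not pass the test, and open points are genes with at most 3 counts per library in 1 group (Ptf1a and Gdf3), whose fitted fold is no bound. Points of most lists lie on both sides of 0, and the list tied to FOXN4 has 5 members above it that rose, of which 4 passed the filter through the NRRA libraries alone.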

How the data were processed

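The authors deposited raw counts per gene for 4 poly(A) libraries. The submitters' processing notes name bcl2fastq, STAR 2.6.1c, featureCounts 1.6.4 and mm10. The study's methods describe stranded libraries, while the annotation release and the strand setting of the counting are not given in the sources used here. Groups came from the sample titles, and Veh columns were matched by their descriptions, which carry the next higher number.

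NRRA and Veh were compared in edgeR 4.0.16 (R 4.3.3; filterByExpr with a minimum count of 10, TMM, robust quasi-likelihood F test) with Benjamini-Hochberg adjustment over all 20232 genes tested and a threshold of 0.05. SE was derived from the F statistic. CPM used TMM-scaled library sizes, and CPM per kb used the union of exons in GENCODE M21 (GRCm38). Totals were 28022265 to 31604769 counts, and floors cover counting error only. The scripts were tested on simulated data. With 2 libraries per group an exact permutation test could not go below 0.333, so none was used. Near-identical sequence was sought with BLAST (95% identity over 100 bases).

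The members, the 8 lists around forkhead factors and the marker lists were chosen with earlier results of these data known. The result of 1 tested member, included in all counts, is not reported here. Values in all libraries were given for members called with a change of at least 2-fold, for the most abundant tested member of each subfamily and for all of subfamily O. Other tested members were given by their log2 fold change, and of each list the called members with the largest and smallest change were named. Prox1, Rorb, Dll4, Atoh7, Mthfsd, Gm27530, A530084C06Rik and further values of Foxc1, Foxf2 and Foxp3 were added after their values were seen. Alternatives were RLE factors, unscaled library sizes, no filter, a minimum of 50 counts in all, no robust estimation, a replicate block, DESeq2 1.42.0 and leaving out each library.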

Additional observations from a re-analysis of the deposited data

How the results depend on the processing

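The 35 forkhead log2 fold changes kept direction and side of the threshold in 236 values from alternatives with all libraries. In 6 they lost the call, in 1 Foxk2 passed (adjusted p = 0.0489, at least 50 counts in all), and in 2 the sign turned, both with unscaled library sizes (Foxj3 0.076, Foxk2 0.0043). Leaving out each library left 130 unchanged, lost 9 and turned Foxj3, which ranged from -0.068 to 0.044, the latter without NRRA replicate 1. The losses concern Foxa1, Foxd1, Foxd2 and Foxr2. The cause was not tested. DESeq2 called 6 forkhead genes higher and 16 lower, and 8566 genes in all (38.8%) against 11406. Leaving out a library gave 7 to 8 higher and 16 to 17 lower.

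With unscaled library sizes the median of all genes was 0.09, 60.3% rather than 49.6% of calls were higher (forkhead genes 36% rather than 34.6%), the summed forkhead log2 ratio was -0.52, and calls became 5 lower among FOXM1 targets and 5 higher in the Nodal pathway. DESeq2 gave 5 motile cilia, 2 FOXN4 neural and 0 FOXL2 granulosa genes higher, and no filter gave 2 lower RNAs next to forkhead genes. Leaving out a library gave 3 to 5 FOXN4 neural and 1 to 2 FOXL2 granulosa genes higher. With the replicate block, 9 forkhead genes were higher and 17 lower, and 5772 and 5836 of all genes. Same-numbered libraries share only a number (correlation of deviations -0.011). The 9 forkhead genes not tested had at most 12 counts in a library, and changes in them were not detectable at this depth.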
